A study of Rattus norvegicus with 12 samples.

Results

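The genes that encode the proteasome were followed in bulk RNA-seq libraries of primary rat oligodendrocyte precursor cells (OPCs, the cells that divide and mature into myelin-forming oligodendrocytes). The genes were taken by name, as every row of the deposited count table whose symbol was Psm, a letter from a to g and a number. This gave 43 of 30562 rows, with 0 symbols repeated. The set was chosen with earlier results of these data known. Of 48 symbols of that kind on a list of known subunits, activators and assembly factors, Psmb10, Psmb11, Psme3, Psmd9 and Psmd10 have no row used here. All cells were wild type (WT) and came from cerebral cortices of Sprague-Dawley rats dissected on postnatal day 1 or 2, so both conditions are cultured neonatal cells and not cells of an adult brain. In 6 libraries, named mild-hypo-OPCs, the cells had been kept at a fraction of inspired oxygen (FiO2) of 5%, and in the other 6, named standard OPCs, at room air. The labels give the exposure as 6 hours, while the methods put it in days, and this was not resolved. The study counts fewer biological replicates per condition than the libraries labelled here, so some libraries of a condition may not come from separate cultures. The p-values, SEs and SDs below take each library as a replicate and measure the spread between libraries, which may be technical. 

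The proteasome is the cell's main machine for degrading proteins tagged with ubiquitin. Its 20S core is a barrel of alpha and beta rings with the cutting sites inside, and a 19S particle on the end of the barrel binds the tagged protein, removes the ubiquitin and feeds the chain inward with a ring of ATPases. Interferon can exchange the cutting subunits of the core for those of the immunoproteasome, which favours peptides for antigen presentation. When proteasome capacity falls, the transcription factor NRF1, encoded by Nfe2l1, is known to raise transcription of the subunit genes as a set through antioxidant response elements in their promoters.

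The libraries differ in depth by condition. Mild-hypo libraries held 4111669 to 9022324 counts and standard libraries 1356079 to 2797513, so the ranges do not overlap, and depth and condition cannot be told apart by design. Members took 0.307% to 0.399% of the counts in the mild-hypo and 0.291% to 0.470% in the standard libraries, and these raw shares overlap. Levels below are CPM, a gene's share of its library's counts at a common depth, scaled by the TMM factors of edgeR, which were 1.08 to 1.23 for mild-hypo and 0.809 to 0.945 for standard libraries. Under those factors the log2 fold changes of all genes tested had a median of 0.00, and with library size alone it was 0.43, so a direction given for a member is relative to the other genes of its libraries. All 7 OPC markers with a row passed the filter on low values. Their summed level was 2720 to 3110 CPM in the mild-hypo and 2420 to 3090 CPM in the standard libraries. Among the 7, 0 were called, where 17.0% of all genes tested were lower and 7.00% higher. These 7 genes are too few to tell 0 calls from those shares. Because the RNA is from bulk cultures, fewer cells of a type and less RNA per cell cannot be told apart in any value below.

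Most proteasome genes were lower in mild-hypo-OPCs. Among genes with a Psm symbol the median log2 fold change was -0.65 in the 20S core and -0.17 in the 19S particle. Of the 43 members, 39 were above 10 CPM in at least 1 library and were tested. Of these, 24 were lower and 0 higher at an adjusted p of 0.05 (edgeR's quasi-likelihood test over 8938 genes). The 24 make 61.5% of the members tested, where 17.0% of all genes tested were called lower and 7.00% higher. At an unadjusted p under 0.05, 1 member was higher (Psmd1). DESeq2 also called 1 higher, where it called 8.89% of all genes tested higher. The median log2 fold change of the members tested was -0.37, with a range from -1.02 to 0.18. With library size alone in place of the TMM factors, 7 members were lower and 12 higher and their median was 0.06, where 4.53% of all genes were lower, 61.7% higher and the all-gene median was 0.43. A fit that also held log2 total count called 0 members in either direction, and the values by depth are given with the core and the particle below. In 10 members all 6 mild-hypo libraries lay below all 6 standard libraries and in 0 members above, where 5.40% of all genes tested lay wholly below and 2.94% wholly above.

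**Figure D1:**
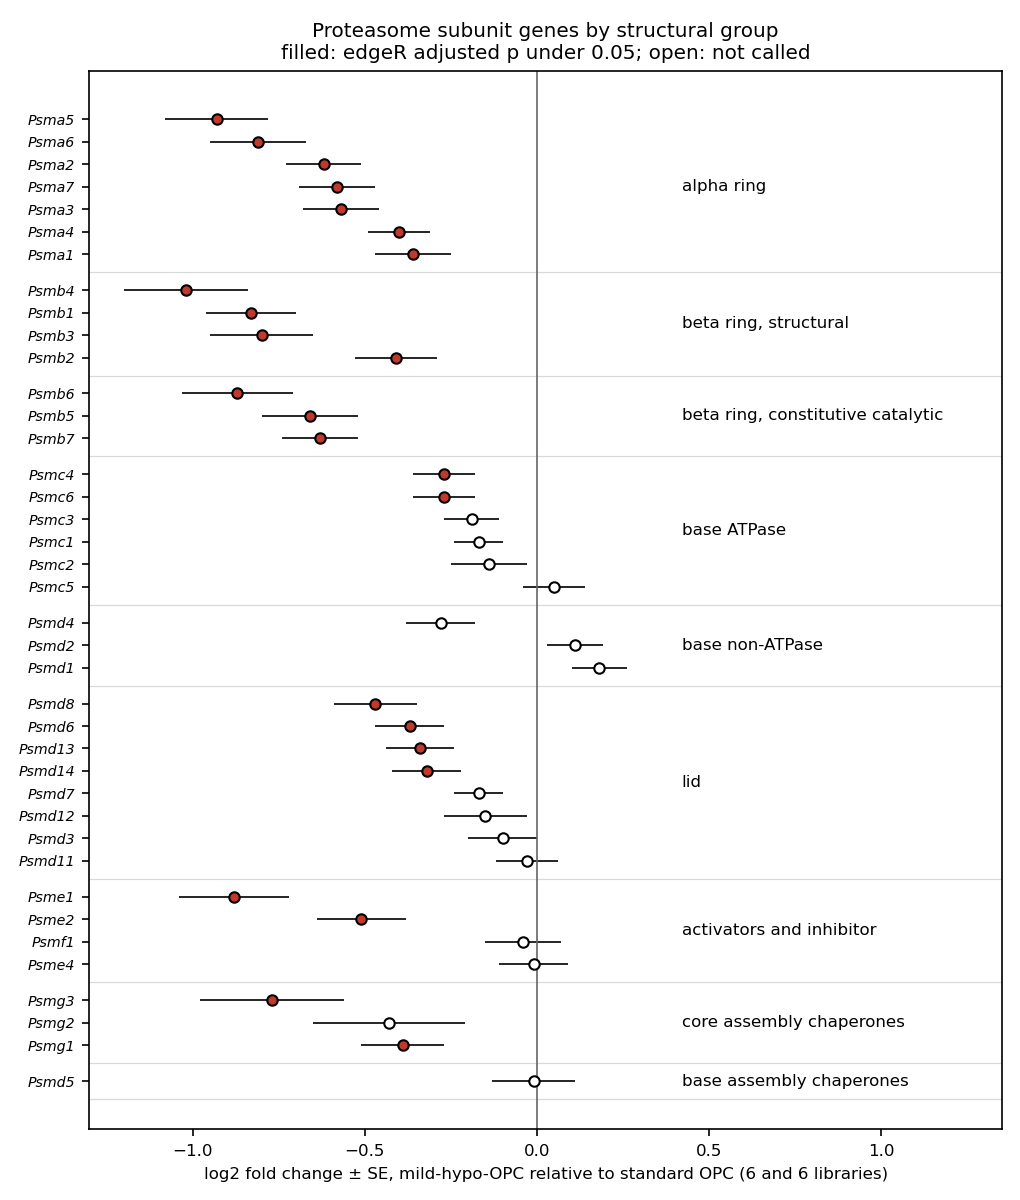
Log2 fold change of each tested proteasome gene in mild-hypo-OPCs relative to standard OPCs (x axis, edgeR with TMM scaling) with its standard error as a bar, grouped by structural role along the y axis. Every 20S core gene lies left of 0, between -1.02 and -0.36, while the 19S genes with a Psm symbol run from -0.47 to 0.18. With library size alone the 20S median was -0.21 and the 19S median turned to 0.27.

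The alpha rings close the ends of the barrel and form its gate, and all 7 constitutive alpha genes fell, with a median log2 fold change of -0.58 and a range from -0.93 to -0.36. The largest fall was that of Psma5 (ENSRNOG00000019868). Its level was lowest 37.7, median 48.2 and highest 56.0 CPM in mild-hypo-OPCs. In standard OPCs it was lowest 58.5, median 89.8 and highest 121 CPM. No mild-hypo library reached the lowest standard library. The log2 fold change was -0.93 ± 0.15 (SE, adjusted p = 0.000283), a ratio of 0.524. In 4 further alpha genes, Psma2, Psma3, Psma6 and Psma7, the conditions also did not overlap, with log2 fold changes of -0.62, -0.57, -0.81 and -0.58. Psma1 and Psma4 overlapped between conditions and had the smallest falls of the ring, -0.36 and -0.40. Psma8, which takes the place of Psma7 in germ cells, had 0 counts in all 12 libraries, which allows a level of up to 0.333 CPM in the deepest and 2.21 CPM in the shallowest library (3 counts of the library total, counting error only).

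The beta rings line the chamber where peptides are cut. The 4 structural beta genes Psmb1, Psmb2, Psmb3 and Psmb4, whose proteins do not cut in the constitutive particle, all fell, with a median of -0.82. Psmb1 (ENSRNOG00000001488) was at 129, 152 and 182 CPM (lowest, median and highest) in mild-hypo-OPCs and at 193, 289 and 370 CPM in standard OPCs. The conditions did not overlap, and the log2 fold change was -0.83 ± 0.13 (SE, adjusted p = 0.000243), the lowest adjusted p of any member. Psmb4 (ENSRNOG00000020979) had the largest change of any member. Its lowest, median and highest levels were 65.2, 85.8 and 101 CPM in mild-hypo-OPCs and 105, 169 and 240 CPM in standard OPCs. Again every mild-hypo library lay below every standard library, at -1.02 ± 0.18 (SE, adjusted p = 0.000452) on the log2 scale, a ratio of 0.492. Psmb3 fell by 0.80 and Psmb2 by 0.41 on the log2 scale, both with overlap between conditions.

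The 3 genes that encode the cutting subunits of the constitutive core fell together. Psmb5 (ENSRNOG00000013386), the chymotrypsin-like subunit that bortezomib binds, was at 62.4, 78.2 and 95.3 CPM in mild-hypo-OPCs and 90.3, 120 and 170 CPM in standard OPCs (lowest, median and highest). The highest mild-hypo library passed the lowest standard library, and the log2 fold change was -0.66 ± 0.14 (SE, adjusted p = 0.00225). Psmb6 (ENSRNOG00000019551), the caspase-like subunit, was at 71.7, 89.5 and 116 CPM against 109, 175 and 222 CPM. These ranges also overlapped, at -0.87 ± 0.16 (SE, adjusted p = 0.000558). Psmb7 (ENSRNOG00000011732), the trypsin-like subunit, was at 130, 141 and 179 CPM against 183, 221 and 283 CPM. It was the 1 catalytic gene whose conditions did not overlap, at -0.63 ± 0.11 (SE, adjusted p = 0.000345).

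The inducible cutting subunits were near the detection limit. Psmb8, which replaces Psmb5 in the immunoproteasome, had 0 to 5 counts per mild-hypo library and 0 to 2 per standard library. Psmb9, which replaces Psmb6, had 8 to 24 and 2 to 8. Neither was tested, since neither was above 10 CPM in any library. Scaled to depth, Psmb9 was at 1.45, 2.50 and 3.32 CPM in mild-hypo-OPCs and 1.84, 3.52 and 6.11 CPM in standard OPCs (lowest, median and highest), with overlap. In a fit of every gene with counts its log2 fold change was -0.54 ± 0.34 (SE, adjusted p = 0.323), and that of Psmb8 was 0.25 ± 0.83 (SE, adjusted p = 0.874). No difference was detected in either gene. Markers of microglia, which can express immunoproteasome genes, were detected. The summed level of 11 microglial markers was 63.8 to 93.3 CPM in the mild-hypo and 30.4 to 63.3 CPM in the standard libraries, with 1 marker (Cd74) at 0 in all libraries. Of the 6 microglial markers tested, 3 were higher and 1 lower, where 7.00% of all genes tested were higher and 17.0% lower. The part of microglia in the proteasome values was not tested.

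**Figure D2:**
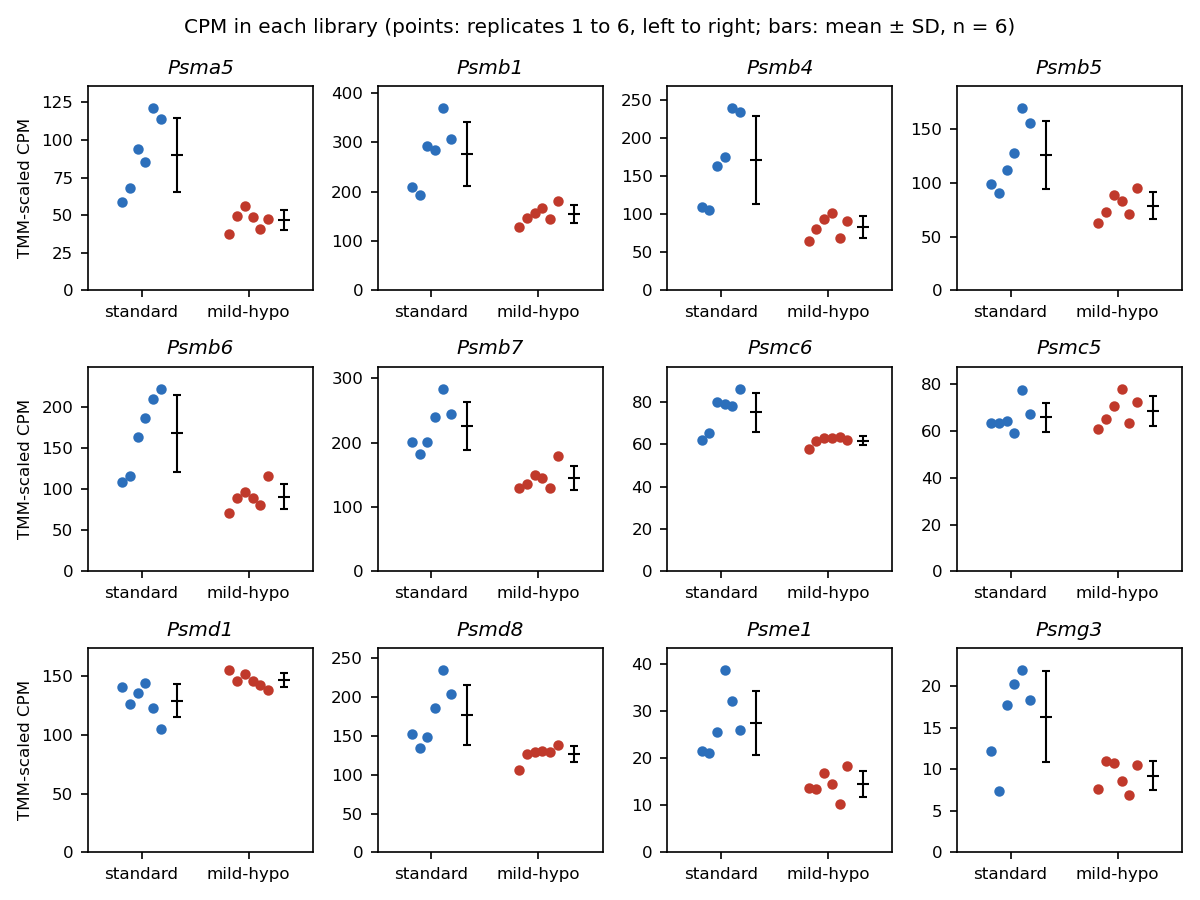
CPM (y axis, linear from 0) of 12 proteasome genes in each library, with standard OPCs on the left of each panel and mild-hypo-OPCs on the right. Each point is 1 of 6 libraries and the bar is the mean ± SD. The core genes Psma5, Psmb1, Psmb4 and Psmb7 and the activator gene Psme1 separate the conditions fully. The core genes Psmb5 and Psmb6 overlap, as do Psmc5, Psmc6, Psmd1, Psmd8 and Psmg3.

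Among genes with a Psm symbol, the 19S genes had a smaller median fall than the core genes. Of 17 tested, 6 fell (35.3%), 0 rose and 11 did not pass the test, where 17.0% of all genes tested were lower. The median log2 fold change of the 17 was -0.17. The 17 leave out Sem1 of the lid, at -1.03, and Adrm1 of the base, at 0.00, which do not carry a Psm symbol. The 6 ATPases of the base unfold the substrate and open the gate of the core, and 2 of the 6 genes, Psmc4 and Psmc6, were called lower. These 6 genes are too few to tell 2 calls from the all-gene share of 17.0%. Psmc6 (ENSRNOG00000007203) was at 58.0, 62.4 and 63.4 CPM in mild-hypo-OPCs and 61.9, 78.6 and 86.3 CPM in standard OPCs (lowest, median and highest). The ranges overlapped, at -0.27 ± 0.09 (SE, adjusted p = 0.0291). Psmc4 (ENSRNOG00000018994) was at 80.3, 86.8 and 93.1 CPM against 87.7, 104 and 129 CPM, at -0.27 ± 0.09 (SE, adjusted p = 0.0328), also with overlap. Neither call was stable. Leaving out any 1 of 10 of the 12 libraries ended the call of Psmc6, with an adjusted p of up to 0.101, and it held only without standard replicate 1 or 2. The call of Psmc4 was lost without any of mild-hypo replicates 1 to 5 or standard replicates 3, 5 or 6, with an adjusted p of up to 0.115. The other ATPase genes, Psmc1, Psmc2, Psmc3 and Psmc5, were not called, at -0.17, -0.14, -0.19 and 0.05.

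The 3 non-ATPase genes of the base with a Psm symbol encode the large scaffold subunits Psmd1 and Psmd2 and the ubiquitin receptor Psmd4. Of these, 0 passed the test. Psmd4 (ENSRNOG00000021042) was at 52.3, 54.3 and 67.0 CPM in mild-hypo-OPCs and 59.5, 63.5 and 91.3 CPM in standard OPCs. The ranges overlapped, at -0.28 ± 0.10 (SE, adjusted p = 0.0601). Psmd1 (ENSRNOG00000017730), described here after its values were seen, was at 139, 146 and 156 CPM against 105, 131 and 145 CPM. It had the highest log2 fold change of the members, 0.18 ± 0.08 (SE, adjusted p = 0.107). It passed the test in DESeq2 (0.19, adjusted p = 0.0352) and with upper-quartile scaling (0.25, adjusted p = 0.0310). It also passed with library size alone (0.62, adjusted p = 2.56e-05), where the all-gene median was 0.43. Psmd2 was at 0.11 and was not called.

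The lid removes ubiquitin chains before the substrate enters the core. Of its 8 genes with a Psm symbol 4 fell, where 17.0% of all genes tested were lower. Psmd8 (ENSRNOG00000037580) changed most. It was at 106, 129 and 138 CPM in mild-hypo-OPCs and 135, 169 and 235 CPM in standard OPCs. The highest mild-hypo library lay above the lowest standard library, and the log2 fold change was -0.47 ± 0.12 (SE, adjusted p = 0.00597). Psmd6 was the 1 gene of the 19S particle whose conditions did not overlap, at -0.37. Psmd13 was at -0.34 and Psmd14, the deubiquitinase of the lid, at -0.32. Psmd13 lost its call without mild-hypo replicate 1, 2 or 5 (adjusted p up to 0.0631) and Psmd14 without any of the same 8 libraries as Psmc4 (adjusted p up to 0.112). Psmd3, Psmd7, Psmd11 and Psmd12 were not called, with log2 fold changes from -0.17 to -0.03. The calls of Psmd6 and Psmd8 held whichever of the 12 libraries was left out.

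Of the 4 genes for caps and inhibitors of the core, 2 fell and 2 were not called. Among all genes tested 17.0% were lower, and 4 genes are too few to tell 2 calls from that share. Psme1 (ENSRNOG00000019041) and Psme2 encode the subunits of PA28, an interferon-inducible cap that opens the core without ubiquitin or ATP. Psme1 was at 10.3, 14.1 and 18.3 CPM in mild-hypo-OPCs and 21.1, 25.8 and 38.7 CPM in standard OPCs. The conditions did not overlap, at -0.88 ± 0.16 (SE, adjusted p = 0.000745). Psme2 fell by 0.51 on the log2 scale with overlap. Psme4, which encodes the PA200 cap, was at -0.01 and Psmf1, which encodes the inhibitor PI31, at -0.04, and neither was called. Both signs depend on the scaling, since with library size alone Psme4 was at 0.42 and Psmf1 at 0.39, close to the all-gene median of 0.43 on that scale.

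Assembly factors for the core pair and order the alpha subunits before the beta ring is built. Of the 4 genes, Psmg1, Psmg2 and Psmg3 were tested and Psmg4, with 1 to 15 counts per library, was not. Psmg3 (ENSRNOG00000001273) was at 6.97, 9.56 and 11.0 CPM in mild-hypo-OPCs and 7.39, 18.1 and 22.0 CPM in standard OPCs. The ranges overlapped through 1 low standard library, at -0.77 ± 0.21 (SE, adjusted p = 0.0125). Psmg1 fell by 0.39 on the log2 scale, a call lost without mild-hypo replicate 1, 2 or 5 or standard replicate 2 or 5 (adjusted p up to 0.0681), and Psmg2 was at -0.43 and not called. Psmd5 (ENSRNOG00000018809), a factor that assembles the base, was at 28.6, 33.1 and 37.9 CPM against 23.7, 31.8 and 41.7 CPM. Its log2 fold change was -0.01 ± 0.12 (SE, adjusted p = 0.957), and the sign changed with the setting.

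Set side by side, all 14 tested core genes fell, with a median of -0.65, and 6 of 17 genes of the 19S particle fell, with a median of -0.17. Among all genes tested 17.0% were lower. Sem1 and Adrm1, given below, are not among the 17. The same contrast can be read within each library, where it does not depend on the scaling between libraries, as the mean log2 CPM of the 14 core genes minus that of the 17 particle genes. This difference was -0.12 to 0.17 in mild-hypo-OPCs, 0.03 ± 0.11 (SD, n = 6). In standard OPCs it was 0.22 to 0.74, 0.53 ± 0.25 (SD, n = 6), so the conditions did not overlap. On the log2 CPM scale the mean core level itself was 6.29 to 6.74 at low oxygen and 6.79 to 7.60 at room air. The mean particle level was 6.41 to 6.57 and 6.56 to 6.87, and these ranges touched. These differences between the 20S and the 19S genes are given without a test.

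Within standard OPCs the difference between core and particle was higher in the 3 shallowest libraries, and within mild-hypo-OPCs it did not run in the order of depth. In the 3 shallowest standard libraries, replicates 4 to 6 with 1356079 to 1664627 counts, it was 0.74 in each. In standard replicates 1, 2 and 3, with 2240615 to 2797513 counts, it was 0.24, 0.22 and 0.53. The deepest library, mild-hypo replicate 1 with 9022324 counts, had the lowest difference, -0.12, while mild-hypo replicate 4, the shallowest of that condition with 4111669 counts, was at 0.04 and mild-hypo replicate 3, the next deepest with 5474102 counts, at 0.11. A fit with log2 total count as a covariate called 0 of the 39 members lower and 0 higher, with a median of 0.02 for the core and 0.01 for the particle, and in that fit 43 of all genes tested were lower and 0 higher. With every library thinned to 1356079 counts, 14 members fell, 11 of them in the core and 1 in the particle, where 6.44% of all genes tested were lower. With replicates 1 to 3 alone 6 members fell, all of them core genes, with a core median of -0.46 and 4.01% of all genes lower. With replicates 4 to 6 alone 21 fell, 14 of them in the core, with a core median of -0.82 and 15.7% of all genes lower.

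**Figure D3:**
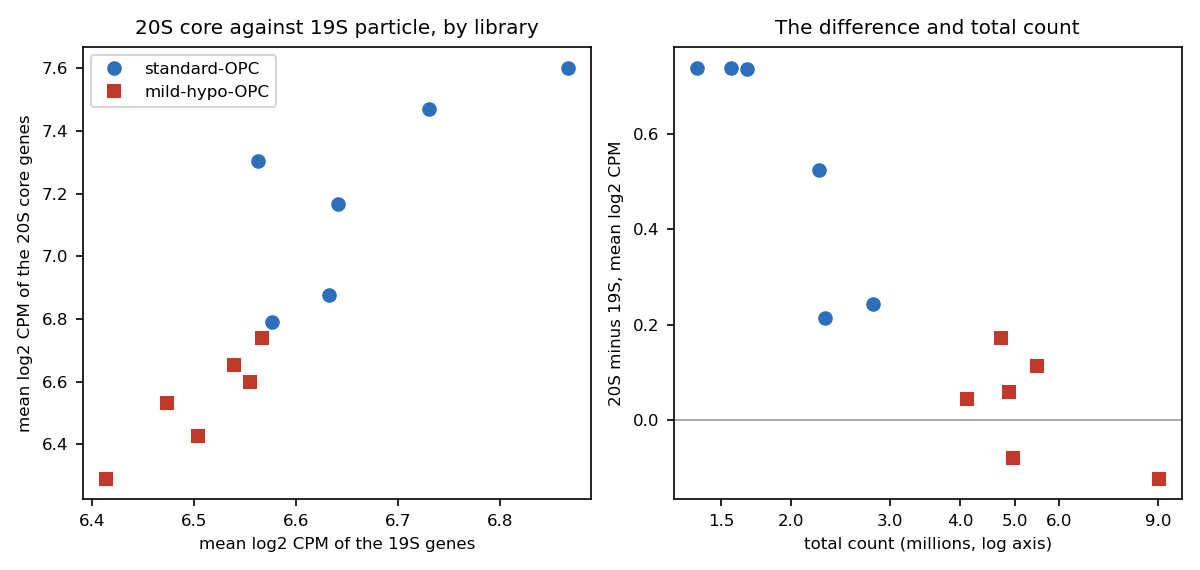
Left, mean log2 CPM of the 14 core genes (y axis) against that of the 17 genes of the 19S particle (x axis), 1 point per library. Right, the difference of these 2 means (y axis) against the total count (log x axis). Mild-hypo libraries lie at -0.12 to 0.17 and standard libraries at 0.22 to 0.74, and the 3 shallowest standard libraries have the 3 highest differences.

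Single libraries weighed on the core genes as a set. Mild-hypo replicate 1 was the lowest of its group for 13 of 14 core genes and mild-hypo replicate 6 the highest for 10. Among standard OPCs, replicate 2 was lowest for 11 core genes and replicate 5 highest for 10. The same few libraries were thus extreme for most core genes of a condition. Their median coefficient of variation was 22.2% in standard OPCs and 12.3% in mild-hypo-OPCs, where counting alone gives 6.66% and 4.24%. For the particle genes it was 14.1% and 6.71%, where counting gives 7.88% and 4.37%. Of the 24 calls, 17 held whichever single library was left out, among them 12 of the 14 core genes. The exceptions in the core were Psma1, lost without mild-hypo replicate 1 or 5 or standard replicate 5 (adjusted p up to 0.0671), and Psmb2, lost without mild-hypo replicate 1, 2 or 5 or standard replicate 5 (adjusted p up to 0.0639). Leaving out 1 library at a time gave 17 to 25 members called lower, where 13.1% to 18.7% of all genes tested were lower.

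**Figure D4:**
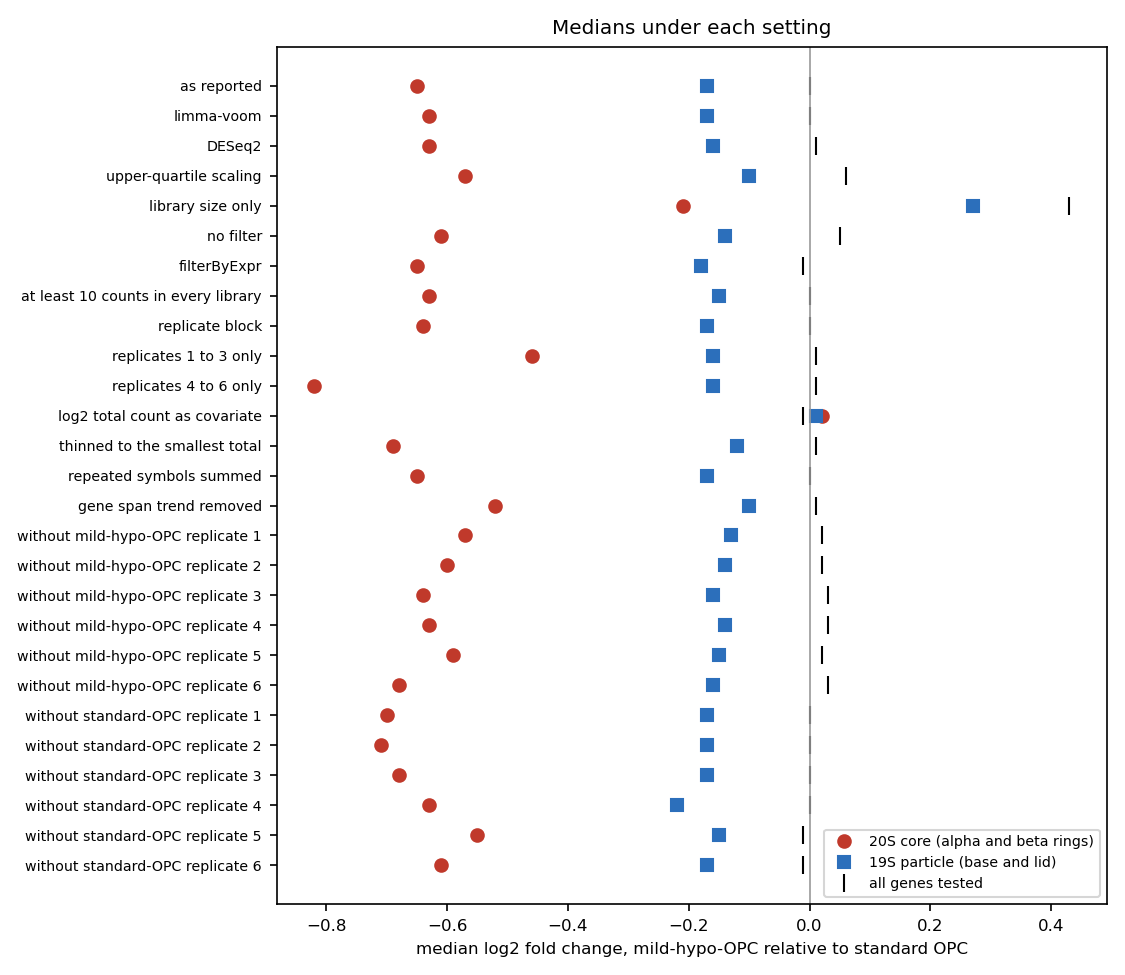
Median log2 fold change (x axis, mild-hypo-OPCs relative to standard OPCs) of the 14 core genes, the 17 genes of the 19S particle and all genes tested, under each way of fitting the data (y axis). The core median lies left of the particle median in every row but the fit with log2 total count as a covariate, where they are 0.02 and 0.01, and with library size alone the particle median turns to 0.27.

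Genes whose proteins work with the proteasome were called in both directions. Of 34 such genes tested, 5 were lower and 5 higher, which is 14.7% each way, where 17.0% of all genes tested were lower and 7.00% higher. Their median was 0.06. The higher genes include Tapbp, which passed the filter only through mild-hypo libraries. Sem1 (ENSRNOG00000010420), which encodes the smallest lid subunit and does not carry a Psm symbol, fell with the core genes. It was at 44.4, 58.0 and 74.3 CPM in mild-hypo-OPCs and 73.4, 130 and 171 CPM in standard OPCs, with overlap. Its log2 fold change was -1.03 ± 0.17 (SE, adjusted p = 0.000323). Pomp (ENSRNOG00000049229), the maturation factor built into the new core and degraded by it, was at 50.2, 76.2 and 95.9 CPM against 78.0, 103 and 152 CPM, at -0.62 ± 0.17 (SE, adjusted p = 0.0111), with overlap. Adrm1 (ENSRNOG00000055984), the ubiquitin receptor of the base, was at 66.8, 72.4 and 81.5 CPM against 57.0, 76.4 and 88.6 CPM, and its log2 fold change was 0.00 ± 0.11 (SE, adjusted p = 0.992).

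The 8 regulators of proteasome genes that were tested included 0 that fell and 1 that rose, where 17.0% of all genes tested were lower and 7.00% higher. Nfe2l1 (ENSRNOG00000008830) was at 91.3, 99.2 and 109 CPM (lowest, median and highest) in mild-hypo-OPCs and 76.0, 97.3 and 104 CPM in standard OPCs. The ranges overlapped, at 0.09 ± 0.08 (SE, adjusted p = 0.483). Ddi2 (ENSRNOG00000012274), the protease that releases NRF1 from the endoplasmic reticulum, was the 1 of 8 regulators called higher. It was at 15.5, 18.5 and 21.3 CPM against 8.66, 13.4 and 17.2 CPM, with overlap. Its log2 fold change was 0.42 ± 0.15 (SE, adjusted p = 0.0459), and it was not called in 7 of 12 refits with a single library omitted (adjusted p up to 0.120).

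Of the genes that encode ubiquitin or activate it, Rps27a (ENSRNOG00000004426) encodes ubiquitin fused to a ribosomal protein and had the largest change. It was at 153, 183 and 200 CPM (lowest, median and highest) in mild-hypo-OPCs and 238, 505 and 551 CPM in standard OPCs, without overlap, at -1.27 ± 0.17 (SE, adjusted p = 0.000143). It may share reads with pseudogenes. Ubb, a polyubiquitin gene, was not called, at -0.08. Uba1 (ENSRNOG00000019164), the main enzyme that activates ubiquitin, was at 243, 280 and 301 CPM against 213, 238 and 256 CPM, with overlap, and was called higher at 0.23 ± 0.08 (SE, adjusted p = 0.0334). Uba1 was not called in 3 of the 12 refits with a single library omitted (adjusted p up to 0.0763).

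Of 8 genes for shuttles and the p97 segregase system, which bring ubiquitin-tagged proteins to the proteasome, 2 rose and 0 fell. Of all genes tested 7.00% were higher and 17.0% lower, and 8 genes are too few to tell these counts from those shares. Ubqln2 (ENSRNOG00000003099), a shuttle, was at 72.6, 83.3 and 92.4 CPM in mild-hypo-OPCs and 49.3, 67.8 and 79.9 CPM in standard OPCs, with overlap, at 0.29 ± 0.10 (SE, adjusted p = 0.0457). Nploc4 (ENSRNOG00000036698), a p97 cofactor, was at 80.4, 83.9 and 86.7 CPM against 55.2, 69.8 and 83.7 CPM, with overlap, at 0.25 ± 0.09 (SE, adjusted p = 0.0401). They were not called in 6 and 4 of those refits (adjusted p up to 0.104 and 0.0876). Of 9 interferon-response and antigen-presentation genes with a row, 4 were tested, and 1 was called lower and 1 higher. B2m (ENSRNOG00000017123), the light chain of MHC class I, was at 135, 139 and 184 CPM against 162, 194 and 233 CPM, with overlap, and fell at -0.38 ± 0.10 (SE, adjusted p = 0.0112). Tapbp (ENSRNOG00000029500), which encodes tapasin, was at 6.93, 8.49 and 10.2 CPM against 1.67, 3.96 and 9.16 CPM, with overlap. It was called higher at 0.92 ± 0.27 (SE, adjusted p = 0.0172). However, it passed the filter only through mild-hypo libraries, and standard libraries held 3 to 12 counts of it. The call was lost with replicates 4 to 6 alone (adjusted p = 0.318) and with thinned counts (adjusted p = 0.286), so no rise is read from it.

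Members differ in gene size and in how many copies the rat genome holds. RefSeq (GRCr8) lists at least 1 pseudogene or like-named copy for 18 of the 43 members, 9 of the core genes and 6 of the 19S genes among them, with 10 copies for Psmb3 and 5 for Psma6. Reads of these genes can be split or shared among the copies, and their part in the values was not tested. The median span from start to end of the gene was 11020 bases over the members tested and 25568.5 bases over all genes with a span. Across the 39 members the log2 fold change rose with log10 span (Pearson's r = 0.42, Spearman's rho = 0.38). Across 8544 genes it also rose (r = 0.32, rho = 0.30). Genes are not independent replicates and share their 12 libraries, so no p is given. With the trend on span removed in each library, a fit chosen after seeing the data, 20 members were lower and 1 higher (Psmc5, 0.24, adjusted p = 0.0255). In that fit 14.4% of all genes tested were lower and 9.82% higher. All 14 core genes and 5 of the 6 called 19S genes were among the 20, and the core and particle medians were -0.52 and -0.10.

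**Figure D5:**
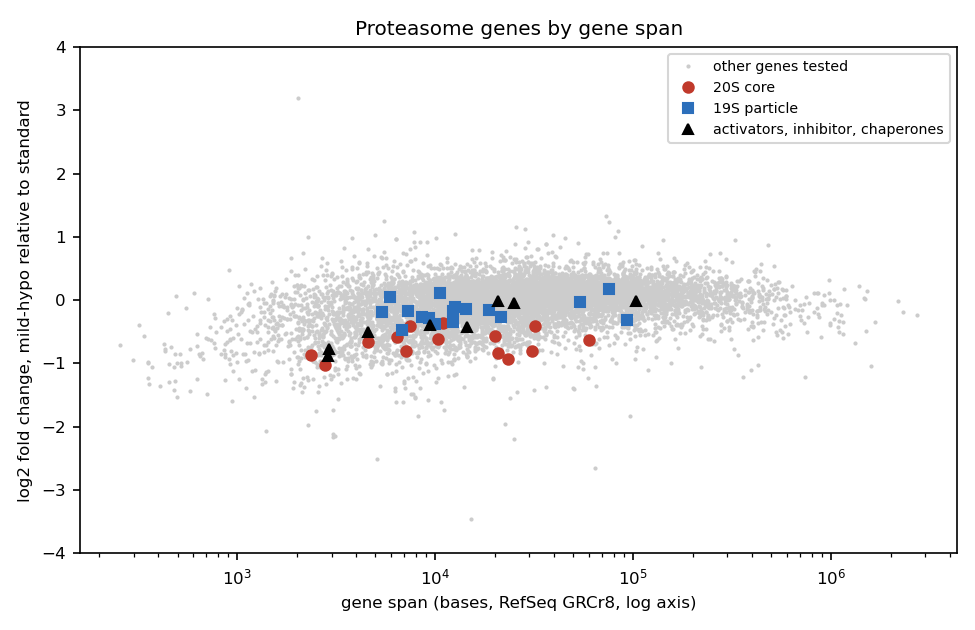
Log2 fold change (y axis, mild-hypo-OPCs relative to standard OPCs, edgeR with TMM scaling) against gene span in bases (log x axis) for the 39 proteasome genes tested, by structural role, over all genes tested with a span. The core genes lie below 0 at short and long spans alike, from Psmb6 at 2367 bases to Psmb7 at 59971 bases, and with library size alone the 20S median was -0.21.

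Promoter sequence was read for 39 of the 43 members from RefSeq (GRCr8), as 250 bases before to 50 bases after each gene start, matched by symbol. Psma7, Psmd6, Psmd12 and Psmd14 had no match. The letters TGACNNNGC, the core of the antioxidant response element that NRF1 binds, were searched on both strands. They stand in 7 of the 39 promoters (17.9%), namely those of Psma3, Psmb2, Psmb5, Psmb6, Psmd1, Psmd3 and Psme4, and in 12.1% of 33469 rat promoters. By structure, 4 of 13 core promoters and 2 of 14 promoters of the 19S particle hold it. The windows of 60 bases around the matches before the gene start are shown for the set that carries the element, since it joins genes that fell and genes that were not called. Each is written 5′ to 3′ on the strand of the gene, with the matched letters in capitals.
Psma3: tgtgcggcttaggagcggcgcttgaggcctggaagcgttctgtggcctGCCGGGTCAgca
Psmb2: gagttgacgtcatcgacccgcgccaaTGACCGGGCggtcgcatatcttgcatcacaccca
Psmb5: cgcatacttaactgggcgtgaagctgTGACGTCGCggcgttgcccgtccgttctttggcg
Psmb6: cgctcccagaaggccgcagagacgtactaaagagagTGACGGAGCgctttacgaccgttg
Psmd1: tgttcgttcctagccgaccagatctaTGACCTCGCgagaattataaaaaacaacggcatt
Psme4: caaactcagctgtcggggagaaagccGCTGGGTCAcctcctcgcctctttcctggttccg
Psma3 is shown at chr6:95219689-95219748 (plus strand), Psmb2 at chr5:144254964-144255023 (plus), Psmb5 at chr15:32047406-32047465 (minus), Psmb6 at chr10:55737828-55737887 (plus), Psmd1 at chr9:94157780-94157839 (plus) and Psme4 at chr14:108706562-108706621 (plus). In Psma3 and Psme4 the match is on the opposite strand, so the capitals read as the reverse complement. The 4 core genes shown had log2 fold changes from -0.87 to -0.41 and were all lower, while Psmd1 and Psme4, at 0.18 and -0.01, were not called. A further match in Psmd1 and the match in Psmd3 lie after the gene start and are not printed. The 9 core promoters of 13 that lack the element also belong to genes that fell, since all 14 core genes did. The part of the element in these values was not tested.

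Other short motifs were counted in the same promoters, on both strands. CCAAT, the box bound by NF-Y, stands in 18 of 39 member promoters (46.2%) and in 37.5% of all, with 9 of 13 in the core and 5 of 14 in the particle. ACGTG, the core of the hypoxia response element bound by HIF, stands in 8 member promoters (20.5%) and in 19.3% of all. By structure it stands in 4 of 13 in the core and 2 of 14 in the particle. GAAA, any 2 bases and GAAA again, a form of the interferon-stimulated element, stands in 6 member promoters (15.4%: Psma4, Psmb3, Psmb8, Psmd7, Psme2 and Psmg4) and in 3.92% of all. By structure this form stands in 2 of 13 in the core and 1 of 14 in the particle. A match is a description of letters in this window and does not show that a factor binds there.

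Markers of other cell types were counted in the same libraries. Oligodendrocyte markers summed to 12000 to 13400 CPM in the mild-hypo and 8340 to 12000 CPM in the standard libraries, with 3 of 6 genes higher and 0 lower. Astrocyte markers summed to 657 to 772 CPM and 617 to 709 CPM, with 1 of 5 tested genes higher. Neuronal markers summed to 127 to 146 CPM and 71.3 to 111 CPM, with 1 of 3 tested genes higher, and vascular and mesenchymal markers stayed at or below 3.02 CPM in every library. Among all genes tested 7.00% were higher and 17.0% lower, and the astrocyte and neuronal lists are too short to tell 1 gene from those shares. The part of these cell types in the proteasome values was not tested.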

How the data were processed

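Total RNA of rat OPCs was sequenced in 12 libraries, 6 per condition. Per the labels, the authors trimmed reads with Trimmomatic 0.36, checked them with FastQC 0.11.9 and used STAR 2.7.9a and RSEM 1.3.3 with build mRatBN7.2. The authors deposited whole-number counts per gene, and nothing in these values was normalised beforehand. The library kit keeps strand, and the strand setting used in counting is not given in the sources used here. Genes above 10 CPM in at least 1 library were kept, and the conditions were compared with edgeR 4.0.16 (R 4.3.3) using TMM factors and its quasi-likelihood test, with p-values adjusted over all genes tested (Benjamini-Hochberg). SE is the log2 fold change divided by the root of F. Replicates differed beyond sampling noise in all 15 pairs of each condition (chi-square per degree of freedom of 3.97 or more). Alternatives were limma-voom (limma 3.58.1), DESeq2 1.42.0, other scalings and filters, a replicate block, replicates 1 to 3 or 4 to 6 alone, depth as a covariate, thinned counts and each library left out. The fit was tested on simulated data. Within each structural group, full values were given for the catalytic genes, the called genes with the lowest adjusted p and the largest change, every gene called higher and, with no call in a group, the lowest adjusted p. In each linked list they were given for up to 2 called genes with the largest change in each direction, and in any case for Nfe2l1, Pomp, Adrm1 and Sem1. Some genes of the linked lists are not reported here by name. Members and lists were chosen with earlier results of these data known.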

Additional observations from a re-analysis of the deposited data

Results flagged for a closer look

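In 78 sets of 6 libraries (39 members in 2 conditions), 5 had 1 library far from the other 5, where chance gives about 1 in 20. Psmc6 was lowest in mild-hypo replicate 1, at 58.0 CPM with the nearest library at 61.6 CPM. Psmd8 was also lowest there, at 106 CPM with the nearest at 127 CPM. Psmd4 was highest in mild-hypo replicate 4, at 67.0 CPM with the nearest at 56.6 CPM. Psmd12 was lowest in replicate 4 of both conditions, at 42.8 CPM in mild-hypo-OPCs (nearest 51.2 CPM) and 30.4 CPM in standard OPCs (nearest 53.9 CPM). All 5 are genes of the 19S particle.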

How the results depend on the processing

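The 24 members called lower were all called under limma-voom, DESeq2, filterByExpr, a minimum of 10 counts in every library and the replicate block. Total count and condition cannot be told apart. With log2 total count as a covariate, 0 members and 0 linked genes were lower, 0 linked genes higher and the member median was -0.01. With library size alone, 7 members were lower and 12 higher with a median of 0.06, and 3 linked genes were lower and 23 higher. On that scale 4.53% of all genes tested were lower and 61.7% higher. With replicates 1 to 3 alone, 6 members were lower (median -0.21), and 3 linked genes were lower and 0 higher. Of all genes tested in that fit, 4.01% were lower and 0.62% higher. Thinned counts gave 14 members lower and 0 linked genes higher, where 6.44% of all genes tested were lower and 1.62% higher. DESeq2, upper-quartile scaling and removal of the span trend gave 1 member higher each, where 8.89%, 12.7% and 9.82% of all genes tested were higher. Linked genes called higher numbered 2 with filterByExpr and 2 with replicates 4 to 6 alone, and 1 to 7 with each library left out. The shares of all genes tested called higher were 5.77%, 6.48% and 4.91% to 9.22%. The causes of these changes were not tested.

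No pairing by replicate number was seen in the correlations of the deviations over all genes tested. These ran from -0.28 to 0.30, with 1 of 6 correlating best with its own number. They cannot exclude that equal numbers share a culture. With the replicate block, 24 members were lower and 2 linked genes higher, where 16.5% of all genes tested were lower and 6.40% higher.

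The sign of single genes changed as follows. DESeq2 gave Psmd5 0.00 and Psme4 0.01. Upper-quartile scaling gave Psmd11 0.04, Psmd5 0.06, Psme4 0.06 and Psmf1 0.03. Library size alone, with the all-gene median at 0.43, gave Psma1 0.08, Psma4 0.03, Psmb2 0.03, Psmc1 0.27, Psmc2 0.29, Psmc3 0.25, Psmc4 0.16, Psmc6 0.17, Psmd3 0.34, Psmd4 0.16, Psmd5 0.43, Psmd6 0.06, Psmd7 0.27, Psmd11 0.41, Psmd12 0.28, Psmd13 0.10, Psmd14 0.12, Psme4 0.42, Psmf1 0.39, Psmg1 0.04 and B2m 0.06. No filter gave Psmd11 0.00, Psmd5 0.02 and Psme4 0.03, and filterByExpr gave Adrm1 0.00. The minimum of 10 counts gave Psmd5 0.00 and Psme4 0.01, and thinned counts Psmd5 0.00 and Psme4 0.05. Replicates 1 to 3 gave Psme4 0.13 and Psmf1 0.01, and replicates 4 to 6 gave Psmd11 0.10, Psmd5 0.16 and Adrm1 -0.13. The total-count covariate gave Psma1 0.11, Psma6 0.05, Psmb2 0.23, Psmb3 0.10, Psmb4 0.05, Psmb5 0.13, Psmb6 0.09, Psmc6 0.04, Psmd2 -0.02, Psmd3 0.24, Psmd4 0.06, Psmd5 0.20, Psmd6 0.04, Psmd8 0.17, Psmd13 0.08, Psmd14 0.07, Psmf1 0.09, Psmg2 0.03, Nfe2l1 -0.11, Pomp 0.38, Sem1 0.09, Ubqln2 -0.07 and Nploc4 -0.05. Removing the span trend gave Psmc3 0.02. With each library left out the ranges were -0.08 to 0.07 for Psmd5, -0.05 to 0.06 for Psme4, -0.08 to 0.02 for Psmd11, -0.11 to 0.03 for Psmf1 and -0.06 to 0.06 for Adrm1.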
